A study of Gallus gallus with 2 samples.

Results

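The MSX and DLX homeobox genes were followed in the wings of 1 chick embryo, as 7 genes chosen by symbol (MSX1, MSX2, DLX1, DLX2, DLX3, DLX5 and DLX6) among 24356 rows of a transcript table. All 7 were found, each as 1 row, and 6 of them were among the 13946 genes compared between the wings. Messenger RNA had been sequenced from the right wing, which had received the vector RCAS-GFP-SOCS2, and from the left wing of the same embryo, which had received nothing. RCAS is a chicken retrovirus that still replicates, here with genes for GFP and for SOCS2, a suppressor of cytokine signalling. Collection took place at day 5 of infection, when the embryo had reached HH 34 in the Hamburger-Hamilton staging of the chick. The embryo was picked because it overexpressed SOCS2, and the label of the uninjected wing also names the RCAS construct. A replicating virus can spread, and no source used here says how far it spread in either wing. Each group held 1 library, so the vector cannot be told apart from the side of the body. No wing with a vector lacking SOCS2 was measured, so SOCS2 cannot be told apart from GFP, the virus or the injection. No p-value, standard deviation or replicate check was possible.

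MSX proteins are homeodomain repressors. Their genes respond to BMP signals and are known from the distal and marginal mesenchyme of the limb bud, from the tissue between the digits and from the apical ectodermal ridge, the epithelial rim that keeps the limb growing outwards. DLX proteins are the vertebrate relatives of Distal-less, the fly gene named for its part in the outer leg. In mouse, DLX5 and DLX6 act in the apical ridge and in developing bone, and loss of both splits the hind foot. DLX3 is known from the epidermis and its appendages, and DLX1 and DLX2 from the forebrain and the pharyngeal arches. DLX genes lie in neighbouring pairs, of which DLX1 with DLX2 and DLX5 with DLX6 are measured here.

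Values are TPM (transcript abundance), which correct for transcript length and give every library an equal sum. The log2 ratio compares injected with uninjected after adding 0.1 TPM to each value, and it understates the change of low genes. Comparison required a mean of at least 1 TPM and a value above 0 on each side. A gene was called lower or higher when the ratio passed 1.5-fold, or 0.58 on the log2 scale, which is a rule of size and not a test. Where a pair of TPM values is given, the uninjected wing comes first. Read depth cannot be recovered from TPM, so the counting error of these values is unknown. SOCS2 itself stood at 54.2 TPM uninjected and 254 TPM injected, without a split between vector and embryo transcripts. The forelimb gene TBX5 stood at 113 and 137 TPM in the uninjected and injected wings. The hindlimb genes TBX4 (5.25 and 1.79 TPM) and PITX1 (15.2 and 15.3 TPM) were present at lower levels. TBX4 was called lower in the injected wing, with a log2 ratio of −1.50, and PITX1 was not called (0.01). The mean of TBX4 lay in the range of 1 to 5 TPM, where 15.5% of genes were called lower.

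MSX1, MSX2 and DLX6 were lower in the injected wing, DLX5 and DLX3 lay below 0 within the 1.5-fold range, DLX1 was near the lower limit of what was compared, and DLX2 was below it. Of the 6 members compared, 3 were lower and 0 higher, where 4.79% of all genes compared were lower and 2.23% were higher. The members were chosen with earlier results of these data known, so this count is no independent support. The median log2 ratio of the 6 was −0.74, beside −0.04 over all genes compared. Summed TPM of all 7 members was 97.3 uninjected and 55.7 injected. Such a sum cannot tell fewer cells of a type from less RNA per cell, and this holds for every value from these whole wings.

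**Figure D1:**
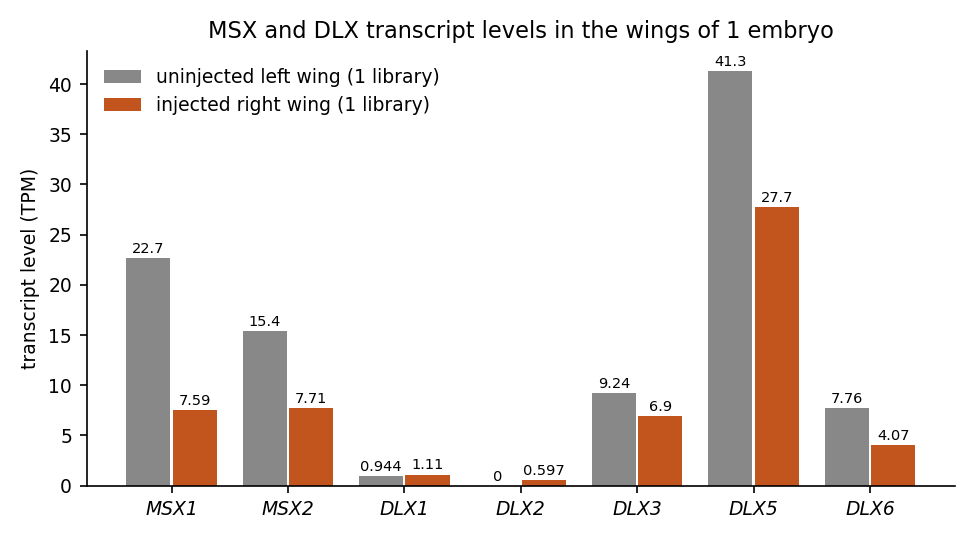
Transcript level in TPM (vertical axis) of each of the 7 genes in the uninjected left wing (grey) and the injected right wing (orange), 1 library each, with the value above each bar. DLX5 is the tallest in both wings, and the grey bar exceeds the orange one for MSX1, MSX2, DLX3, DLX5 and DLX6.

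MSX1 (ENSGALG00000015013) stood at 22.7 TPM in the uninjected wing and at 7.59 TPM in the injected wing. The level was 2.99-fold lower in the injected wing, a log2 ratio of −1.57, the lowest of the 6. Of all genes compared, 43 (0.308%) had a lower ratio. MSX1 was also the only member past 2-fold, a size that 1.48% of all genes compared passed in the lower direction.

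MSX2 (ENSGALG00000038848), which overlaps MSX1 in its known limb expression, stood at 15.4 TPM uninjected and 7.71 TPM injected. It was 1.99-fold lower, with a log2 ratio of −0.99, and 212 genes (1.52%) had a lower ratio. The log2 ratio of MSX1 was 0.58 below that of MSX2 (−0.58). In the uninjected wing MSX1 was the more abundant, at 1.48 times the level of MSX2, and in the injected wing the levels were nearly equal, at 0.984 times. The MSX sum went from 38.1 to 15.3 TPM, which is 40.2% of the uninjected level.

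DLX6 (ENSGALG00000023195) stood at 7.76 TPM uninjected and 4.07 TPM injected, 1.91-fold lower, with a log2 ratio of −0.91. A lower ratio was found for 269 genes (1.93%). Its pair partner DLX5 (ENSGALG00000009129) was the most abundant member in both wings, at 41.3 TPM uninjected and 27.7 TPM injected. That was 1.49-fold lower, a log2 ratio of −0.57, just short of the 1.5-fold rule, and 705 genes (5.06%) had a lower ratio. In TPM, the difference of injected minus uninjected was −13.5 for DLX5 and −15.1 for MSX1. DLX5 was at 5.32 times the level of DLX6 in the uninjected and 6.82 times in the injected wing.

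DLX3 (ENSGALG00000040529) stood at 9.24 TPM uninjected and 6.90 TPM injected, with a log2 ratio of −0.42 that lay within 1.5-fold. Of all genes compared, 1229 (8.81%) had a lower ratio. DLX1 (ENSGALG00000018439) stood at 0.944 TPM uninjected and 1.11 TPM injected, and its log2 ratio of 0.21 was the only one of the 6 above 0. DLX2 (ENSGALG00000039436) was listed at 0 in the uninjected and at 0.597 TPM in the injected wing. No ratio was taken, since an estimate that failed can also be listed as 0. The DLX sum went from 59.2 to 40.4 TPM, or 68.2% of the uninjected level, and DLX5 made up 69.7% of it in the uninjected and 68.6% in the injected wing.

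The order of levels in the uninjected wing was DLX5, MSX1, MSX2, DLX3, DLX6, DLX1 and DLX2. In the injected wing it was the same except that MSX2 and MSX1 changed places, at 7.71 and 7.59 TPM. With 1 library per wing there is no spread against which neighbours in this order could be told apart.

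Low genes differ more between 2 libraries than abundant ones, so each member was set beside genes of like abundance. Among 3634 genes whose mean lay at 5 to 20 TPM, the band that holds MSX1, MSX2, DLX3 and DLX6, 5.09% were lower past 1.5-fold. Of the 6064 genes at 20 to 100 TPM, the band of DLX5, 1.52% were lower. Of the 2431 genes at 1 to 5 TPM, the band of DLX1, 15.5% were lower and 7.77% higher. The ratio of DLX1 is thus small beside the scatter of its band, whereas MSX1 lay far below the 5th percentile of −0.48 for the genes within 2-fold of its mean. DLX5 also lay below that percentile for its own abundance (−0.37), as did MSX2 (−0.54) and DLX6 (−0.78), while DLX3 lay above it (−0.66).

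**Figure D2:**
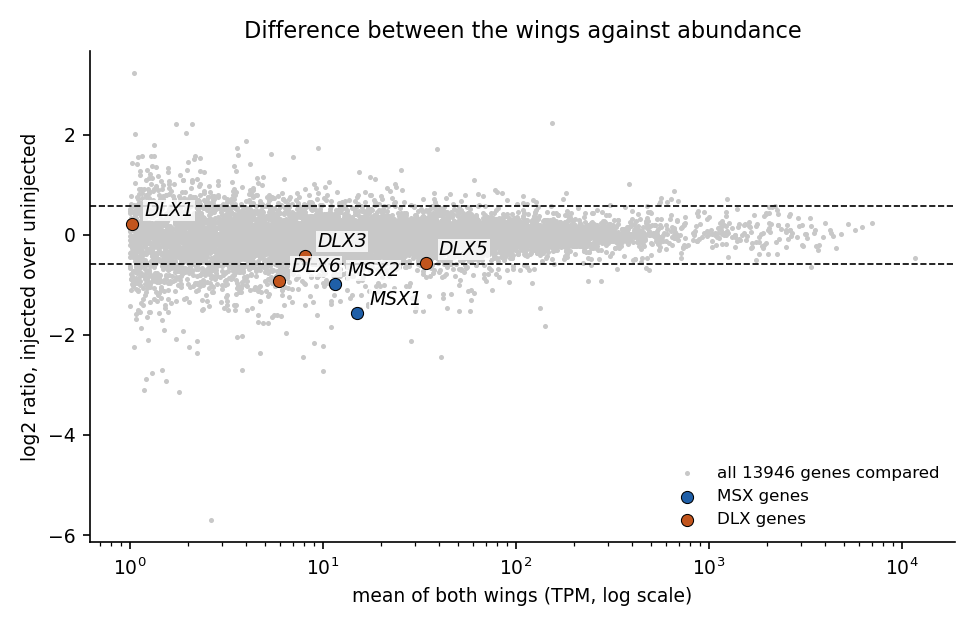
Log2 ratio of injected over uninjected (vertical axis) against the mean of both wings in TPM (horizontal axis, log scale) for the 13946 genes compared (grey), with MSX genes in blue and DLX genes in orange; dashed lines mark 1.5-fold. MSX1, MSX2 and DLX6 lie below the lower line, DLX5 lies on its inner edge at −0.57, and DLX1 lies at the low-abundance end above 0.

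The 3 lower calls held in each of 9 settings at the 1.5-fold rule, the main one included. Across these settings, which changed the pseudocount, the scaling, the filter on low values or the trend over abundance one at a time, MSX1 ranged from −1.58 to −1.46, MSX2 from −0.99 to −0.90 and DLX6 from −0.93 to −0.79. DLX5 ranged from −0.57 to −0.52 and DLX3 from −0.42 to −0.35, and neither was called in any of them. DLX1 ranged from 0.12 to 0.34 in the 8 settings that kept it. The 2 filters only choose which genes are kept, so no ratio could change under them. The 3 scalings divided the injected wing by 0.966 to 0.971, a shift too small to move the 3 lower calls. None of the settings measures how much repeat libraries would differ.

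**Figure D3:**
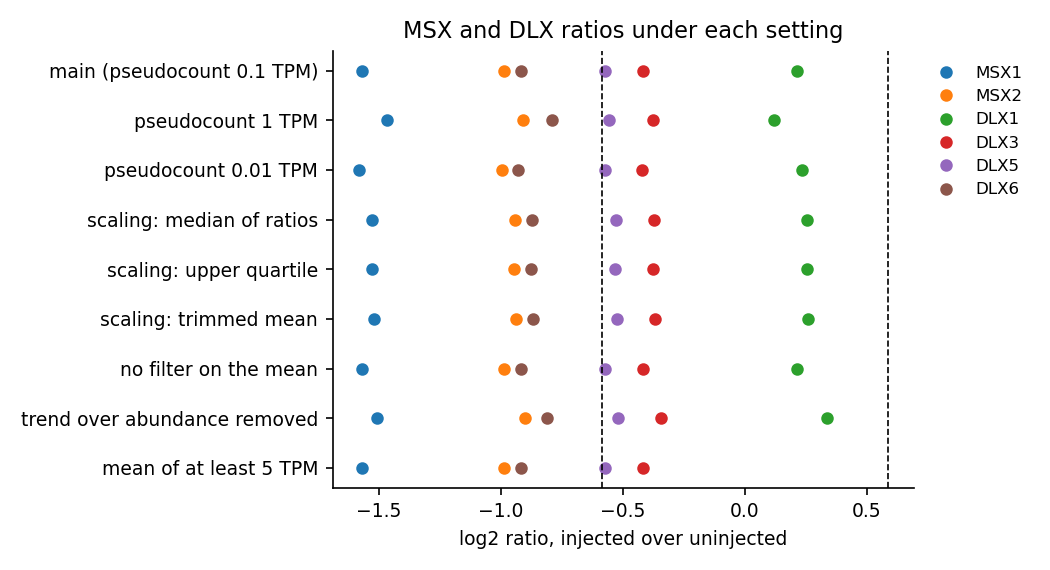
Log2 ratio of injected over uninjected (horizontal axis) for each of the 6 members compared, under each processing setting (vertical axis); dashed lines mark 1.5-fold. MSX1, MSX2 and DLX6 stay below the lower line in all 9 settings, and DLX5 stays inside it, at −0.57 to −0.52.

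The genes beside the members on the chromosome lay within 1.5-fold except for 2. Neighbours were read from the gene order of the RefSeq table for assembly GRCg7b, as the nearest 2 on each side with a measured row, and since the authors' build was GRCg6a, only the order was used. Of 20 neighbours outside the family, all compared, 1 was lower and 1 higher past 1.5-fold. Over all genes compared, 4.79% were lower and 2.23% higher. The median log2 ratio of the neighbours was −0.10. STX18 and CYTL1, on either side of MSX1, stood at −0.09 and −0.03, while HMP19 and SFXN1, on either side of MSX2, stood at −0.36 and 0.02. The lower neighbour was STK32B, a kinase gene beyond CYTL1, at 9.34 and 6.10 TPM in the uninjected and injected wings (log2 ratio −0.61), and it kept its call in 4 of 9 settings.

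The higher neighbour was SEM1, which encodes a small subunit of the proteasome and lies beside DLX6. It stood at 51.6 TPM uninjected and 78.0 TPM injected, a log2 ratio of 0.59 that passed 1.5-fold in all 9 settings. Its ratio and that of DLX6 (−0.91) therefore had opposite signs at the locus known in human as the split hand/foot region. On the other side of the DLX pair, TAC1 stood at −0.27 and ASNS at −0.35. Around DLX1 and DLX2 the ratios of ITGA6, PDK1, METAP1D and HAT1 lay between −0.26 and −0.05, and around DLX3 those of ITGA3, SAMD14, KAT7 and FAM117A between −0.35 and −0.09.

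**Figure D4:**
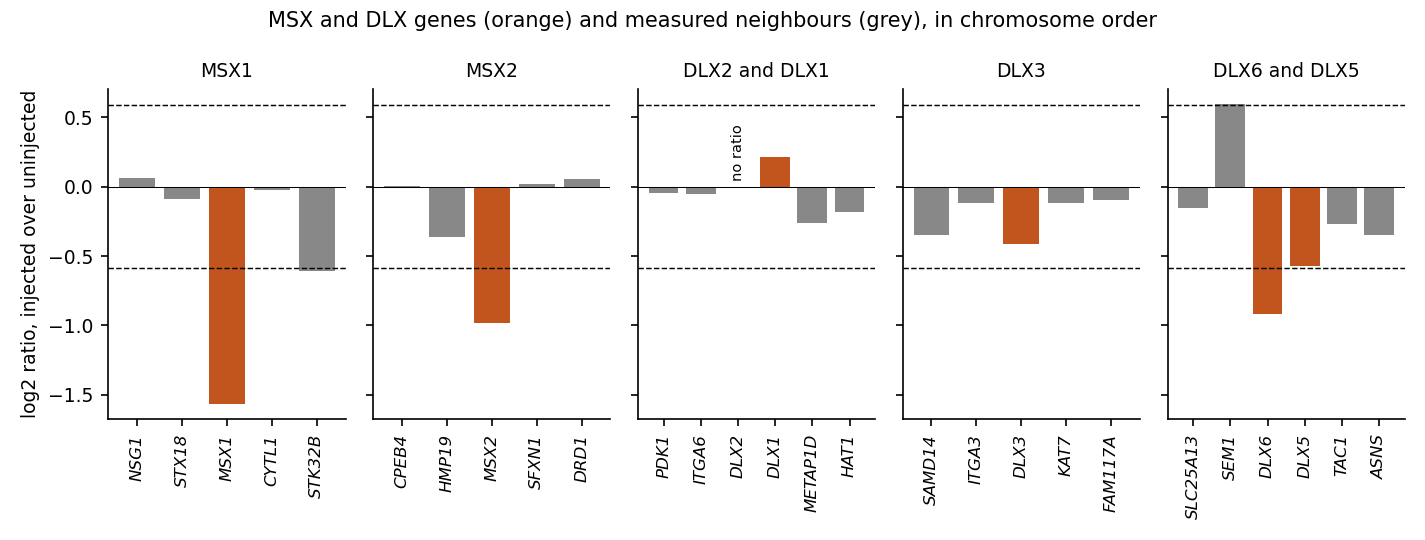
Log2 ratio of injected over uninjected (vertical axis) for the MSX and DLX genes (orange) and the 2 nearest measured genes on each side (grey), in chromosome order with 1 panel per locus and no scale of distance; dashed lines mark 1.5-fold. The bars of MSX1, MSX2 and DLX6 reach −1.57, −0.99 and −0.91, below all grey bars, and SEM1 beside DLX6 points upwards at 0.59.

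The genes that most resembled each called member were those nearest to it in log2(TPM + 0.1) over the 2 libraries. Over 2 values this likeness says no more than similar levels in each wing. For MSX1 they were C1orf145 (22.0 and 7.12 TPM uninjected and injected), FMC1 (23.1 and 8.20 TPM) and SALL1 (24.9 and 9.26 TPM), a zinc finger gene of the distal limb. For MSX2 they were the potassium channel gene KCNG3 (15.8 and 7.49 TPM), the WNT ligand gene WNT3 (16.0 and 8.13 TPM) and IFI27L1 (15.2 and 8.25 TPM). For DLX6 they were FAM19A2 (7.65 and 4.23 TPM) and VOPP1 (7.44 and 4.25 TPM), among the nearest 3.

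Lower calls were also found in the distal limb list, which covers the region where MSX1 is known to be expressed. Of 12 compared among 13 listed, 6 were lower and 0 higher, with a median log2 ratio of −0.65, beside 4.79% lower among all genes compared and a median of −0.04. The list was drawn up with earlier results of these data known, so its count is no independent support. Called lower were HOXD13 (−2.43), HOXA13 (−2.22), HOXD12 (−1.46) and SALL1 (−1.42), with SHH (−1.12) and HOXD11 (−0.79) named beyond the naming rule after their values were seen. SHH stood at 6.35 and 2.87 TPM, with a mean in the band of 1 to 5 TPM, where 15.5% of genes were lower. The ratio of MSX1 (−1.57) fell between those of HOXA13 and HOXD12, and MSX2 and DLX6 fell between SHH and HOXD11. Named likewise, LHX9, a LIM homeobox gene of the distal limb, stood at 50.7 and 52.6 TPM (0.06).

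Proximal limb genes showed no lower call among 8 compared and 1 higher, MEIS2, a homeobox gene of the upper limb, which is listed as Meis2a.2, at 33.0 and 58.6 TPM (0.82). Among all genes compared, 4.79% were lower and 2.23% higher. The median log2 ratio of the proximal limb genes was 0.13. Markers of the early limb mesenchyme, which are spread along the limb, had 0 calls among 6 compared and a median of −0.10. The most abundant were PRRX1 at 239 and 204 TPM and TWIST2 at 219 and 223 TPM in the uninjected and injected wings.

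Among other homeobox genes of the NKL class, to which MSX and DLX belong, 12 of 26 listed were compared, with a median of −0.10. Of these, 2 were lower and 2 higher, beside 4.79% lower and 2.23% higher among all genes compared. The lower ones were NKX3-2, a factor of early cartilage, at 4.82 and 2.41 TPM (−0.97), and BARX1 at 3.34 and 1.69 TPM (−0.94). The higher ones were HMX1 at 3.95 and 8.68 TPM (1.12) and LBX1, a gene of migrating muscle precursors, at 7.68 and 11.7 TPM (0.59, which became 0.54 and lost its call with 1 TPM as pseudocount). The mean of each of these 4 was below those of MSX1 and MSX2. Those of NKX3-2 and BARX1 lay in the band of 1 to 5 TPM, where 15.5% of genes were lower. Those of HMX1 and LBX1 lay at 5 to 20 TPM, where 1.95% were higher.

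BMP signalling is known to induce MSX genes. Among 12 ligands and antagonists, 1 was lower and 0 higher, where 4.79% of all genes compared were lower and 2.23% higher. Of the 12, 8 lay below 0 and 4 above, with a median of −0.09. Most of all genes compared also lay below 0, with a median of −0.04. The lower gene was GDF5, a growth factor gene of the joint (24.6 and 14.6 TPM, −0.75). The related GDF6, at 0.899 and 1.39 TPM (0.58), lay just within 1.5-fold and passed it in 5 of the 8 settings that kept it. Further ligand genes, all named after their values were seen as GDF6 was, were BMP4, at 67.8 and 46.9 TPM (−0.53), BMP7, at 48.5 and 37.0 TPM (−0.39), BMP2, at 23.9 and 19.0 TPM (−0.33), BMP5, at 32.8 and 32.7 TPM (−0.01), and BMP6, at 18.6 and 23.2 TPM (0.32), and each lay within 1.5-fold. The means of BMP2, BMP4, BMP5, BMP6 and BMP7 lay within 2-fold of that of DLX5, a range with a 5th percentile of −0.37. BMP4 and, narrowly, BMP7 lay below it, and BMP2, BMP5 and BMP6 above it. This percentile shifts with abundance and was not taken around the mean of each BMP gene, so the split is only a rough guide. The antagonists NOG (−0.09) and GREM1 (0.05), also named after their values were seen, lay near 0.

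Of 13 BMP receptors, SMAD genes and targets, 2 were lower and 0 higher, against the same 4.79% and 2.23%, and their median was −0.06. ID1, an inhibitor of basic helix-loop-helix factors and a BMP target, was lower at 41.0 and 17.0 TPM (−1.27), and BAMBI, a decoy receptor, at 58.4 and 36.5 TPM (−0.67). Other ID genes lay near 0. ID2, named after its value was seen, stood at 268 TPM in both wings, and ID3, named likewise, at 176 and 171 TPM (−0.04). The signal transducers SMAD1 (0.07) and SMAD5 (0.12), also outside the naming rule, lay near 0.

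The list for the apical ridge, where MSX2, DLX5 and DLX6 are known to be expressed, held 2 calls, both higher. Since the values come from whole wings, these calls cannot be placed in the ridge itself. Of 12 genes compared among 15 listed for the ridge and its signals, 0 were lower and 2 higher. Among all genes compared, 4.79% were lower and 2.23% higher. Of the 12, 7 lay below 0, as did most of all genes compared, whose median was −0.04. The higher ones were the growth factor genes FGF4, at 1.60 and 5.58 TPM (1.74), and FGF8, at 5.56 and 10.6 TPM (0.92). FGF4 has a mean in the band of 1 to 5 TPM, where 7.77% of genes were higher. The list median was −0.12, and WNT3A, which acts upstream of FGF8 in the chick ridge and was named after its value was seen, stood at 8.72 and 6.13 TPM (−0.50).

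Split hand/foot genes, a list of genes at or linked to human split hand/foot loci, include SEM1 beside DLX6. Of 11 listed, 6 were compared, with 0 lower and 2 higher, SEM1 and LBX1 (0.59 each). Both lay close to the 1.5-fold rule. LBX1 came to 0.54 and lost its call with 1 TPM as pseudocount, while SEM1 kept its call narrowly in all 9 settings. The shares over all genes compared were 4.79% lower and 2.23% higher. TP63, a factor of the epidermis and ridge known in mouse to act upstream of DLX5 and DLX6, stood at 35.3 TPM uninjected and 35.0 TPM injected (−0.01); it was named after its value was seen.

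In the epidermis list, the background to DLX3, 14 of 16 genes compared lay below 0, with 1 lower past 1.5-fold and a median log2 ratio of −0.34. The lower gene was ESRP1, an epithelial splicing regulator, at 7.22 and 4.34 TPM (−0.72). Over all genes compared, 4.79% were lower past 1.5-fold and the median was −0.04. Summed over the 17 listed genes found, the level was 841 TPM uninjected and 691 TPM injected, and KRT75 was listed at 0 in the uninjected wing and at 0.137 TPM in the injected wing. The ratio of DLX3 (−0.42) lay inside the range of these genes, −0.72 to 0.18, as did that of DLX5 (−0.57), whereas MSX1, MSX2 and DLX6 lay below it. The part of the epidermis in these ratios was not tested.

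Genes of cartilage hypertrophy and bone, in which DLX5 and DLX6 are known to act in mouse, had a median of −0.23 over 12 compared. Of these, 1 was lower and 2 were higher, beside 4.79% lower and 2.23% higher among all genes compared. ALPL, alkaline phosphatase, was lower at 74.9 and 49.0 TPM (−0.61), but lay within 1.5-fold under 3 other scalings. RUNX3 (0.60) and the collagenase gene MMP13 (0.61) were higher, and both came to 0.55, inside 1.5-fold, when the pseudocount was 1 TPM. RUNX2, the main factor of bone formation, which was named after its value was seen, stood at 18.7 and 13.3 TPM (−0.49).

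Markers of other cell types also differed between the wings. The shares over all genes compared were 4.79% lower and 2.23% higher. Of 5 melanocyte and Schwann cell genes compared, 3 were higher, or 1 with a pseudocount of 1 TPM, their median was 0.60, and the summed level went from 67.4 to 84.1 TPM. Of 6 red blood cell genes, 4 were lower, among them RHAG (−1.01), all 6 lay below 0 with a median of −0.71, close to the −0.74 of the MSX and DLX genes, and the sum went from 1113 to 838 TPM. MYF5 (1.11) was the only call among 7 skeletal muscle genes, and cartilage (8 genes), endothelium (5) and macrophage (4) had 0 calls. Skeletal muscle had 6 of 7 genes above 0 and cartilage 7 of 8. Their medians were 0.18 and 0.17, beside −0.04 over all genes compared. The muscle sum went from 2781 to 3144 TPM and the cartilage sum from 1978 to 2390 TPM. The medians of endothelium (−0.02) and macrophage (0.06) lay near 0. The part of these cells in the MSX and DLX ratios was not tested.

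**Figure D5:**
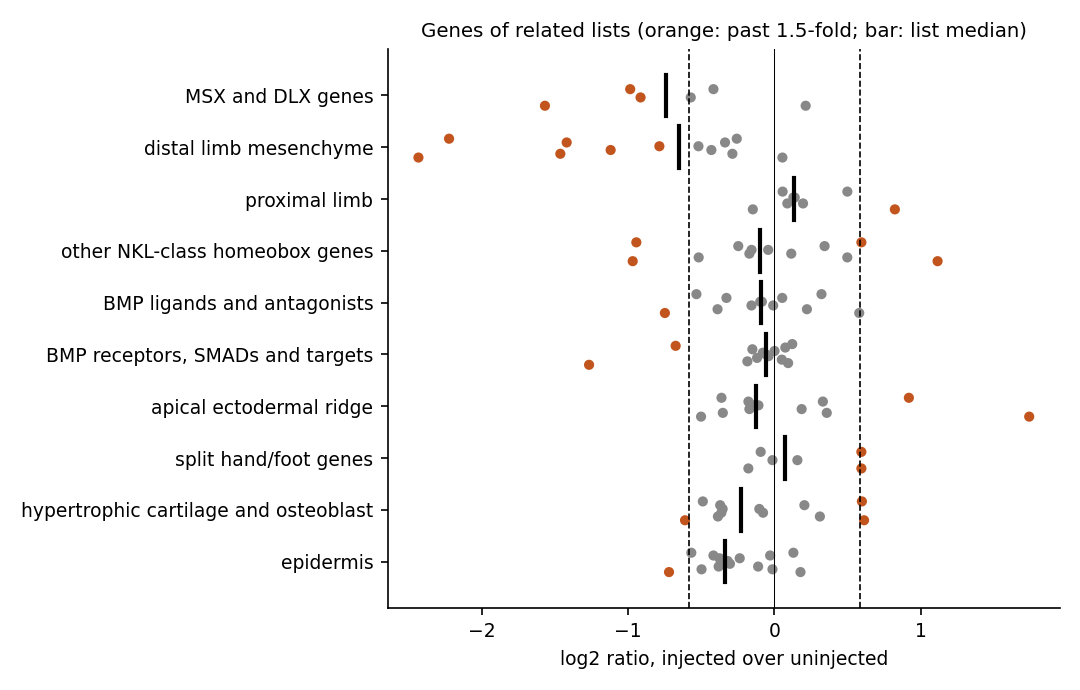
Log2 ratio of injected over uninjected (horizontal axis) for each gene compared (points) in the MSX and DLX set and 9 related lists (vertical axis), with genes past 1.5-fold in orange, list medians as black bars and dashed lines at 1.5-fold. The medians of the MSX and DLX genes (−0.74) and of the distal limb list (−0.65) lie farthest to the left of the lists drawn, which leave out the markers of other cell types such as red blood cells (−0.71), and the 2 orange points of the apical ridge list lie to the right.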

How the data were processed

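The authors deposited TPM values, scaled within each library, with Ensembl chicken identifiers, and these were used unchanged. Per the submitters' processing notes the tools were HISAT2 (2.2.1) and StringTie (2.1.7), and the build was GRCg6a; settings, annotation release and strand handling were not given in the sources used here. A further table, of raw counts in 2 columns, was not used, because its column names match neither sample's title; whether it comes from another embryo is unknown here, so it gave neither depth nor a replicate. Samples were grouped by their treatment label. Short RNAs (1313 rows) were left out. Alternatives were pseudocounts of 1 and 0.01 TPM, 3 scalings, 2 filters, removal of a running median over 501 genes, and a 2-fold rule. The calls and scalings were checked on simulated data.

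Members and lists were chosen with earlier results of these data known. Genes were named by rule: all members, up to 4 called genes of a list in each direction (the 2 most abundant where there were none), the 3 nearest to each called member, and 2 measured neighbours a side. Some genes that the rule names are left out of the text. The text marks exceptions; TBX5, TBX4, PITX1 and SOCS2 were shown as checks of the labels, and the marker lists of other cell types are given mainly by counts. List symbols were matched exactly or through older symbols in the RefSeq table. Computations used Python 3.11.15, pandas 2.3.3, NumPy 2.4.6 and matplotlib 3.10.9.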

Additional observations from a re-analysis of the deposited data

How the results depend on the processing

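The 3 lower members kept their calls under each alternative except the 2-fold rule, which left 1, MSX1. The median of the members lay between −0.91 (mean of at least 5 TPM, which drops DLX1) and −0.66 (trend over abundance removed). The counts over all genes compared, 668 lower and 311 higher, became 432 and 186 with a pseudocount of 1 TPM, 1297 and 831 with no filter on the mean, 292 and 122 with a mean of at least 5 TPM, and 207 and 70 under the 2-fold rule. Higher genes made up 31.8% of the calls, and 45.1% with the trend over abundance removed. The 3 scalings shifted the median of all genes by less than 0.1 on the log2 scale. Each ratio compares the 2 wings of 1 embryo, and with 1 such pair no paired test was possible. The depth behind the TPM is unknown, so the error of DLX1 and DLX2, near or below 1 TPM, cannot be stated.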
